A study of Mus musculus with 6 samples.

Results

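Expression of 7 genes of iron storage, iron export and heme breakdown was followed in mouse bone marrow cells through a culture driven by Flt3 ligand (Flt3L), a cytokine of dendritic cell development. The genes were Fth1, Ftl1, Slc40a1, Slc11a1, Hmox1, Blvrb and Tfrc, taken by symbol from a table of 21761 genes, and all 7 were found. RNA-seq was run on 6 libraries, 2 at each of 3 points: fresh bone marrow at day 0 (replicates II and III), cultured cells at day 4 that the submitters name common myeloid progenitors (CMP, replicates I and II), and cultured cells at day 7 that they name bone marrow-derived dendritic cells (BMDC, replicates III and IV). All cells came from male C57BL/6J mice whose age the labels do not give, and both later groups grew in medium with a supernatant of SP2/0 cells transfected to secrete Flt3L. For days 4 and 7 the labels speak of all live cells and name no sort. Whether replicates are different animals or cultures is not said, and p-values therefore describe the spread between these samples alone, which may be technical.

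Cells take up iron bound to transferrin through the transferrin receptor, encoded by Tfrc, and keep it in ferritin, a shell of heavy (Fth1) and light (Ftl1) chains, of which the heavy chain oxidizes the iron. Ferroportin (Slc40a1) is the iron exporter of the cell surface, and NRAMP1 (Slc11a1) moves iron and manganese out of the phagosome of myeloid cells. Heme oxygenase 1 (Hmox1) opens the heme ring and frees its iron, and biliverdin reductase B (Blvrb) acts on biliverdin and flavins. Macrophages use this route to recycle the iron of red cells, while red cell precursors depend on Tfrc to make hemoglobin.

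Of the 7 genes, 4 carry in their transcripts the hairpin loop bound by iron regulatory proteins (the iron-responsive element), and the loops are shown because their place decides what the protein does. A protein bound in the 5′ UTR blocks translation, and proteins bound in the 3′ UTR of Tfrc protect the transcript from decay. GENCODE M21 transcripts (GRCm38) were searched on the transcript strand for a C, 5 bases, the loop CAGTGN and 5 bases, where the 5 bases on each side of the loop can pair (A with T, G with C or T). The loop was found in a 5′ UTR of Fth1 at chr19:9982733-9982759 (plus strand), Ftl1 at chr7:45459780-45459806 (minus strand) and Slc40a1 at chr1:45925466-45925492 (minus strand). It was found 4 times in the 3′ UTR of Tfrc, of which the first is at chr16:32631220-32631246 and the last at chr16:32631711-32631737 (plus strand). Capitals mark the 6 bases of the loop.
Fth1: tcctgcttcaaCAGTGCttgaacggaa
Ftl1: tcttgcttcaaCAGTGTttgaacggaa
Slc40a1: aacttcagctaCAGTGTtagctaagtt
Tfrc, first: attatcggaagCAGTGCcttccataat
Tfrc, last: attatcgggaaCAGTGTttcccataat
A loop of this form lay in a 5′ UTR of 28 of 21875 protein-coding genes searched (0.128%) and in a 3′ UTR of 127 (0.581%). No such loop was found in Slc11a1, Hmox1 or Blvrb. The table holds transcript levels, and translation was not measured. RefSeq promoters (GRCm38.p6, 300 bases, both strands) were searched for TGACNNNGC, the core bound by NRF2 and small Maf proteins. It matched 12.4% of all promoters and none of the 8 entries of 5 of these genes. Hmox1 and Slc40a1 have no entry. With so few entries and no search outside these 300 bases, this cannot tell whether the genes lack the element.

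Depth rose with the day of culture, from 157797 and 322837 reads in genes at day 0 through 1365635 and 3852628 at day 4 to 10951745 and 16149088 at day 7. The number of genes with reads did not follow depth. Of 21761 genes, 18534 and 16964 had reads in day 0 libraries II and III and 20629 and 19777 in day 4 libraries I and II. In day 7 libraries III and IV, 13658 and 12278 had reads. Falls of low genes at day 7 stand beside these counts, and why fewer genes had reads was not tested. For a gene of 1 kb, a floor of 3 reads at day 0 equals 9.29 and 19.01 RPKM (reads scaled to gene length and library total). The day 0 libraries also differed in makeup: the 10 neutrophil markers summed to 61504 RPKM in library II and 7110 RPKM in library III, and the 11 erythroid markers to 33847 and 20598 RPKM. The names CMP and BMDC were set beside marker genes. At day 4 the neutrophil markers summed to 30027 to 42052 RPKM. At day 7 the 14 macrophage markers summed to 12325 and 13091 RPKM. The 10 dendritic cell markers then summed to 1325 and 1507 RPKM, against 36.3 to 139 RPKM before. The median of these 10 was 3.33 and 6.86 RPKM at day 7, against 1.89 to 6.16 RPKM before. Bst2, a marker of plasmacytoid dendritic cells that interferon also induces, made up 613 and 714 RPKM of the day 7 sum. Zbtb46, a transcription factor that defines conventional dendritic cells, stood at 0.0288 and 0.0283 RPKM and Flt3 at 1.22 and 1.97 RPKM. Of genes that both dendritic cells and macrophages can express, H2-Ab1 of MHC class II stood at 666 and 730.3 RPKM and the integrin gene Itgax at 24.7 and 25.9 RPKM. Elsewhere in the list, Siglech stood at 5.44 and 8.22 RPKM and Cd209a at 11.8 and 21.5 RPKM. Xcr1 gave 0.528 and 0 RPKM, Clec9a 0.703 and 0 RPKM, and Ccr7 0.564 and 5.50 RPKM. In bulk samples, fewer cells of a type and less RNA per cell cannot be told apart.

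By day 4, Slc40a1, Slc11a1 and Hmox1 rose and Tfrc fell. Between day 4 and day 7, Slc11a1 and Blvrb rose. Day 7 against day 0, all but Ftl1 were called, with Tfrc the single gene that fell. The 3 comparisons share libraries and are not independent of each other. A gene was called at a limma adjusted p under 0.05, on log2(RPKM + 1).

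For day 4 against day 0, limma called 3 of the 7 genes higher and 1 lower, beside 3.66% and 1.92% of the 19279 genes tested (5.58% in either direction). Both day 4 libraries lay above both day 0 libraries for 5 of the 7 (17.9% of all genes) and below them for 1 (33.3%), and Blvrb overlapped. The median log2 fold change was 3.15 for the 7 genes and -0.40 for all genes tested. Without either day 4 library limma called 0 of the 7, and it then called 0 of all genes as well, with 6499 and 3437 at unadjusted p under 0.05. For day 7 against day 4, 2 were called higher and 0 lower (1 was lower at unadjusted p under 0.05, and voom on recovered reads called 1 lower), beside 5.85% and 6.75% of all genes (12.6% in either direction). Both day 7 libraries lay above both of day 4 for 4 of the 7 (19.6% of all genes) and below them for 1 (57.6%), and Hmox1 and Tfrc overlapped. The medians were 0.31 and -0.81. For day 7 against day 0, 5 were called higher and 1 lower, beside 11.3% and 29.3% of all genes (40.6% in either direction). Day 7 lay above day 0 without overlap for 6 of the 7 (19.6% of all genes) and below it for 1 (50.8%). The medians were 3.47 and -1.14.

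**Figure D1:**
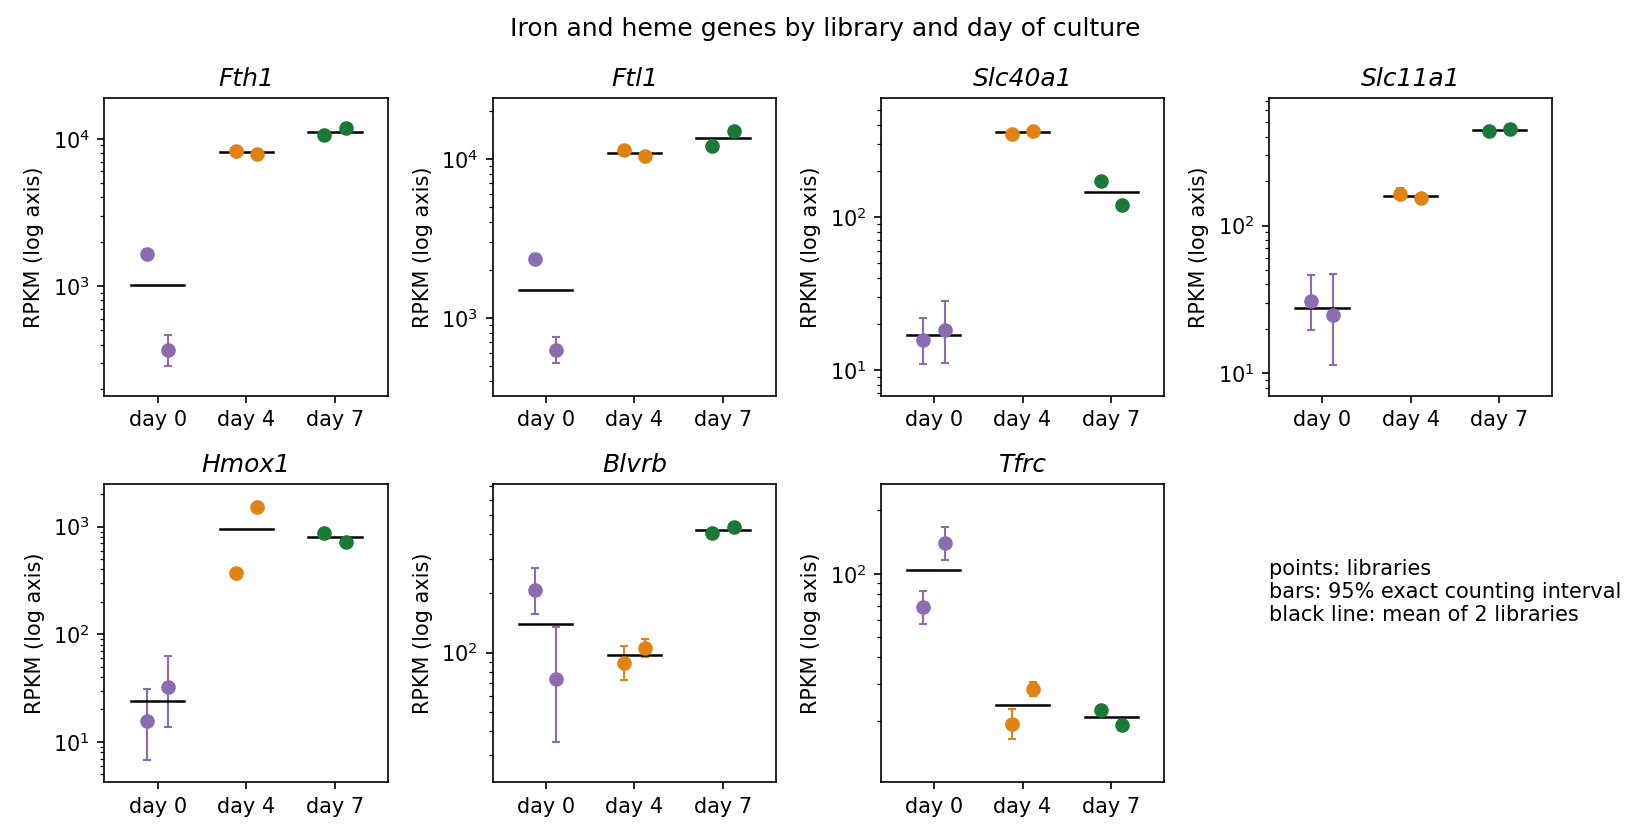
RPKM of the 7 genes (vertical log axes) in each of 6 libraries at days 0, 4 and 7, with exact 95% counting intervals as bars and the mean of 2 libraries as a black line. At day 0 the 2 libraries lie far apart for Fth1 (1653 and 369 RPKM) and Ftl1, and at day 4 for Hmox1 (374 and 1518 RPKM).

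The ferritin chains were among the most abundant transcripts of the cultured cells. Fth1, the heavy chain, measured 1653 and 369 RPKM in fresh marrow (libraries II and III), then 8282 and 7941 on day 4 (I and II), then 10531 and 11764 on day 7 (III and IV). Every cultured library lay above both day 0 libraries, and every day 7 library above both day 4 libraries. Day 0 gave 1011 ± 908 RPKM, day 4 8112 ± 241 RPKM and day 7 11147 ± 872 RPKM (mean ± SD, n = 2 libraries here and below). The log2 fold change was 3.37 ± 1.19 (± SE here and below) for day 4 against day 0 and did not pass (limma adjusted p = 0.132). Day 7 against day 0 gave 3.83 ± 1.19 and passed (limma adjusted p = 0.036). That call was lost in 9 of 16 alternative settings (limma adjusted p up to 0.471), and the change was 4.91 with library II of day 0 left out and 2.75 with library III left out, called in both.

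Ftl1, the light chain, gave 2340.5 and 629.8 RPKM in fresh marrow, then 11279.6 and 10370.4 on day 4, then 12033 and 14996 on day 7. The order of the libraries by day was that of Fth1, with no overlap between days. The change of Ftl1 missed the threshold at day 4 against day 0 (3.15 ± 1.29, limma adjusted p = 0.174) and at day 7 against day 0 (3.47 ± 1.29, limma adjusted p = 0.0602). By RPKM, Ftl1 ranked 1 of all genes in both day 7 libraries and 2 in both day 4 libraries, and 19 and 20 at day 0. Fth1 ranked 2 in both day 7 libraries, 5 and 3 at day 4, and 28 and 39 at day 0.

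For the ferritin genes, the 2 libraries of a day differed most at day 0. There library II held 4.48 times the Fth1 RPKM of library III and 3.72 times the Ftl1 RPKM. The SEs also depended on the fit. They were 0.72 (Fth1) and 0.67 (Ftl1) with no mean-variance trend, an alternative chosen after seeing the data. With no filter on low values they were 3.88 and 5.23. Without the trend, Ftl1 at day 7 against day 0 passed (limma adjusted p = 0.0133). At day 4 and day 7 the larger library was at most 1.25 times the smaller for either gene. Without day 0 library II the change of Fth1 at day 4 was 4.45 (limma adjusted p = 0.00222), and without library III it was 2.29 (limma adjusted p = 0.049). For Ftl1 the same values were 4.10 (limma adjusted p = 0.00412) and 2.21, where it was not called. The neutrophil markers moved the same way between the day 0 libraries, and their part in the difference was not tested. Both genes have near-identical copies in the mouse genome, among which the authors' counting could split reads. The table lists Ftl2, such a copy, at 30.2 and 43.8 RPKM at day 7 and at most 4 reads in any earlier library.

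**Figure D2:**
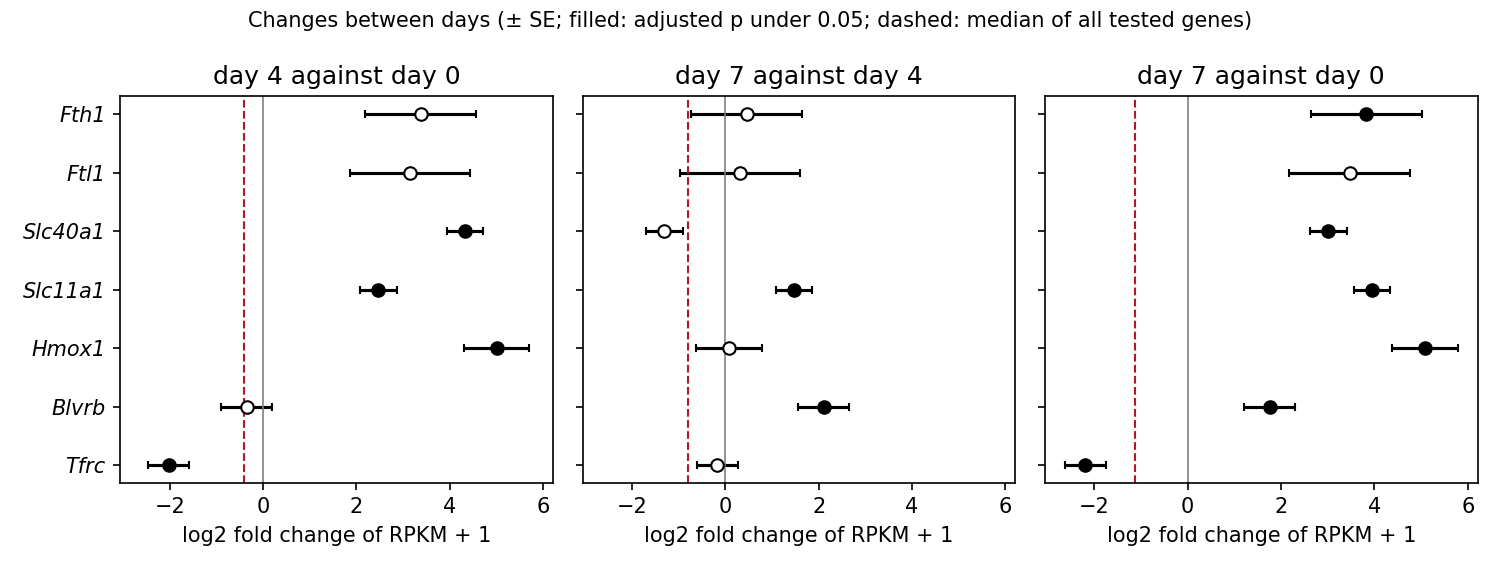
Log2 fold changes of RPKM + 1 (horizontal axes, ± SE from limma) of the 7 genes in 3 comparisons; filled points are called and the dashed line is the median of all 19279 tested genes. At day 4 against day 0, Hmox1 lies at 5.001 and Slc40a1 at 4.32, both called, and Tfrc at -2.02.

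Slc40a1, the iron exporter ferroportin, was highest at day 4. Fresh marrow held 15.6 and 18.2 RPKM of it (35 and 20 reads), day 4 held 345 and 366, and day 7 held 171 and 119.8. The days did not overlap, and the spread between libraries of a day was small beside the steps between days. Slc40a1 rose 4.32 ± 0.39 from day 0 to day 4 (limma adjusted p = 0.00711), a 21.1-fold ratio of mean RPKM. Day 7 stood 3.01 ± 0.39 above day 0 (limma adjusted p = 0.00202). The step from day 4 (356 ± 14.9 RPKM) to day 7 (145 ± 36.1 RPKM) was -1.31 ± 0.39 and did not pass (limma adjusted p = 0.0636). That step passed in 7 of 16 alternative settings, among them voom on recovered reads (limma adjusted p = 0.0011) and quantile normalization (limma adjusted p = 0.0267).

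The transcript of Slc11a1, the gene of the phagosomal metal transporter NRAMP1, went up at each step. Whether mice of this strain make a working NRAMP1 protein was not tested, so the rise does not speak to metal transport. Fresh marrow gave 30.9 and 24.8 RPKM (23 and 9 reads), day 4 gave 164 and 153, and day 7 gave 433 and 447. Each library of a later day lay above both libraries of the earlier one. The gene rose 2.47 ± 0.39 by day 4 (limma adjusted p = 0.0164) and a further 1.47 ± 0.39 by day 7 (limma adjusted p = 0.0428). The call of the first step was lost in 4 of 16 alternative settings and that of the second in 7 of 16, each with the same sign. Under quantile normalization the second step was 0.54 and was not called (limma adjusted p = 0.421). Against day 0 the rise at day 7 was 3.94 ± 0.39 (limma adjusted p = 0.000705), called in each of 16 alternative settings.

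Hmox1 encodes the heme oxygenase that stress induces, and it was called higher at day 4 and at day 7 than at day 0. Each day 0 library held 8 reads of it, at 15.7 RPKM (exact 95% interval 6.79 to 30.98) and 32.2 RPKM (13.9 to 63.4). Libraries I and II of day 4 gave 374 and 1518 RPKM, and those of day 7 gave 879.6 and 722. Both day 7 values thus fell between the 2 day 4 values, which differed 4.06-fold. Hmox1 rose 5.001 ± 0.70 by day 4 (limma adjusted p = 0.0123) and stood 5.08 ± 0.70 above day 0 at day 7 (limma adjusted p = 0.00263). The change at day 4 was 6.01 without library I and 3.99 without library II. The call at day 4 was lost in 4 of 16 alternative settings, among them reads thinned to the smallest library (limma adjusted p = 0.0949). Against day 0 the call at day 7 was lost in 1 of 16, with the same thinned reads (limma adjusted p = 0.0538). Day 7 against day 4 gave 0.08 ± 0.70 (limma adjusted p = 0.932), and its sign was turned in 4 of 16 alternative settings.

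Blvrb, the biliverdin and flavin reductase, rose late. Fresh marrow had 208 and 73.3 RPKM (58 and 10 reads), day 4 had 88.9 and 105.9, and day 7 had 406 and 435. The day 4 libraries lay between those of day 0, and both day 7 libraries lay above all others. Day 4 against day 0 gave -0.34 ± 0.55 (limma adjusted p = 0.734), and 0.40 without day 0 library II. The gene rose 2.10 ± 0.55 from day 4 to day 7 (limma adjusted p = 0.0415) and 1.76 ± 0.55 from day 0 to day 7 (limma adjusted p = 0.0357). Under quantile normalization these were 1.25 (limma adjusted p = 0.13) and 0.22 (limma adjusted p = 0.732), and neither was called. Each of these calls was lost in 9 of 16 alternative settings, and the change from day 0 to day 7 was 2.51 with library II of day 0 left out and 1.01 with library III left out.

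Tfrc, the transferrin receptor, fell. Fresh marrow showed 69.4 and 139.7 RPKM (127 and 125 reads), day 4 showed 19.4 and 28.4, and day 7 showed 22.5 and 19.1. The day 0 libraries stood above all cultured ones, and the day 4 and day 7 libraries overlapped. Tfrc fell by 2.02 ± 0.44 on the log2 scale by day 4 (limma adjusted p = 0.0397) and by 2.19 ± 0.44 by day 7 against day 0 (limma adjusted p = 0.0106). The call at day 4 was lost in 10 of 16 alternative settings, each with the same sign, and with pseudocount 0.1 limma adjusted p was 0.0673. Day 7 against day 4 was -0.17 ± 0.44 (limma adjusted p = 0.77).

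Erythroid markers moved with Tfrc in the first step. All 11 fell at day 4 against day 0 (percent called lower over all genes, 1.92%), from a sum of 33847 and 20598 RPKM to one of 1869 and 2034. At day 7 they summed to 4.60 and 8.94 RPKM, with 6 and 7 of the 11 at 0, Slc4a1 and Alas2 among them, while Tfrc stood at 22.5 and 19.1 RPKM. The 8 proliferation markers summed to 299 and 471 RPKM in fresh marrow, then to 149.5 and 280, then to 31.5 and 29.1. Limma called 0 of them at day 4 against day 0 (3 lower at unadjusted p under 0.05) and 7 lower at day 7 against day 4 (6.75% of all genes). The part of either list in the fall of Tfrc was not tested.

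Of the 14 macrophage markers, 12 rose from day 4 to day 7, Vcam1 fell and Mertk was not called (limma adjusted p = 0.0577). The sum of the 14 was 154 and 152 RPKM in fresh marrow, then 254 and 165, then 12325 and 13091. Their median was 7.80 and 10.6 RPKM in fresh marrow, then 4.50 and 1.51, then 261 and 285. Limma called 1 of 14 higher (Cd68, a lysosomal glycoprotein) and 1 lower (Fcgr1, an Fc receptor) at day 4 against day 0, beside 3.66% and 1.92% of all genes. The 12 higher and 1 lower at day 7 against day 4 stand beside 5.85% and 6.75%. Vcam1, an adhesion molecule, went from 15.98 and 20.7 RPKM on day 4 to 0.956 and 0.437 on day 7. Slc40a1 and Hmox1 stood at 345 to 366 and 374 to 1518 RPKM at day 4. There C1qa stood at 2.71 and 0.96 RPKM and Adgre1 at 6.58 and 4.31 RPKM, but Cd68 at 171 and 88.4 RPKM. The neutrophil markers, at 30027 to 42052 RPKM at day 4, summed to 195 and 206 RPKM at day 7, where 10 of 10 had fallen against day 4 (6.75% of all genes). The part of these lists in the results was not tested.

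Within a library the balance of the genes shifted as well. Fth1 and Ftl1 together took 0.46% (95% interval by the exact Clopper-Pearson method, 0.437 to 0.484) and 0.115% (0.0986 to 0.133) of reads in genes at day 0. On day 4 they took 2.25% (2.23 to 2.28) and 2.11% (2.098 to 2.126), then 2.61% (2.601 to 2.617) and 3.09% (3.078 to 3.098) on day 7. PCR copies are not independent molecules, and the intervals hold counting error alone. The ratio of Ftl1 to Fth1, per length, was 1.42 and 1.705 in fresh marrow, 1.36 and 1.31 on day 4, then 1.14 and 1.275 on day 7, so that the light chain transcript was the higher in all 6 libraries. The ratio of the exporter Slc40a1 to the importer Tfrc was 0.224 and 0.13 in fresh marrow, 17.8 and 12.9 on day 4, then 7.58 and 6.27 on day 7. No test of the ratios was made.

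**Figure D3:**
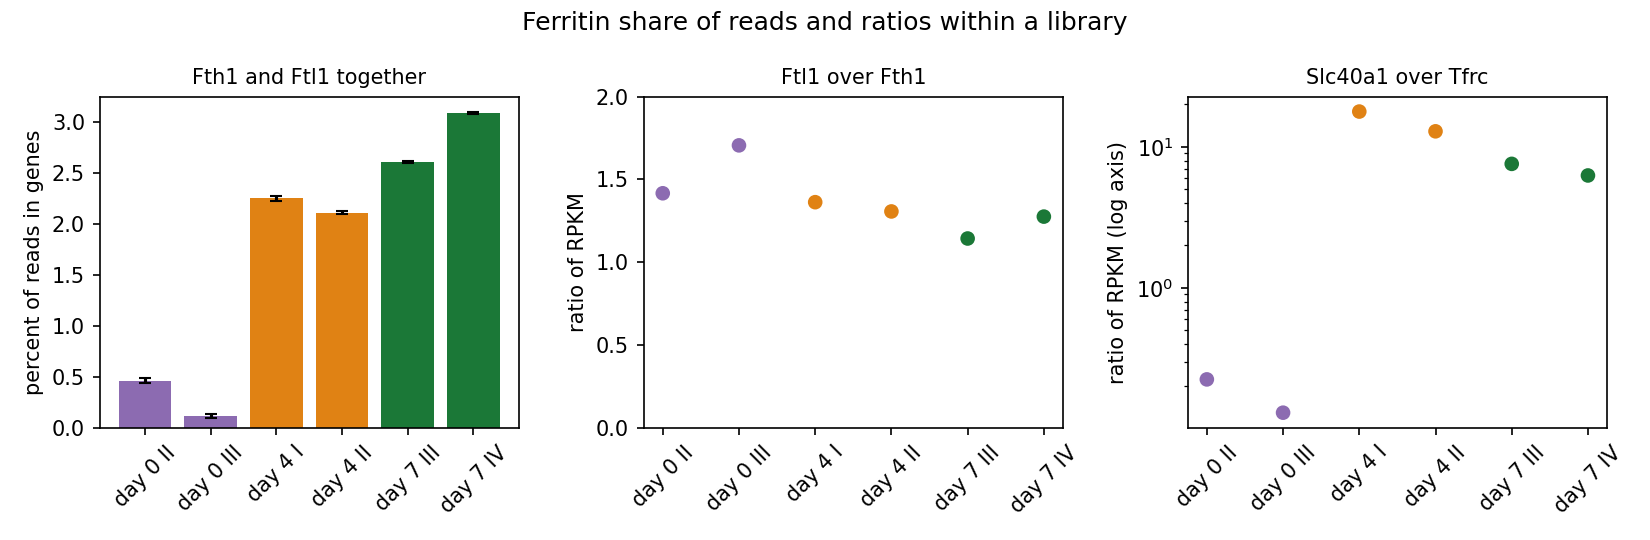
Share of reads in genes taken by Fth1 and Ftl1 (left, percent, with exact 95% intervals), and ratios of RPKM of Ftl1 to Fth1 (middle) and of Slc40a1 to Tfrc (right, log axis) in each library. The ferritin share is 2.11% or more in the cultured libraries and 0.46% or less at day 0, and the right-hand ratio is 0.224 or less at day 0 and 6.27 or more in culture.

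A list of 43 other iron and heme genes, by role, was read from the same fit, and all 43 passed the filter on low values. For day 4 against day 0, 5 were called higher and 1 lower (3.66% and 1.92% of all genes), for day 7 against day 4, 5 and 6 (5.85% and 6.75%), and for day 7 against day 0, 11 and 13 (11.3% and 29.3%). Their median log2 fold changes were -0.30, -0.45 and -0.24, against -0.40, -0.81 and -1.14 over all genes. Counts of called genes in this list moved widely with the setting at day 7 against day 4. Among settings that left no library out, they ran from 5 with reads thinned to the smallest library to 32 with voom on recovered reads. Over all 19279 genes the same settings called 250 higher and 397 lower (thinned) and 2396 higher and 10392 lower (voom).

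Heme handling beyond the main genes moved at different times. Hmox2, the constitutive heme oxygenase, was highest at day 4, with 14.7 and 17.2 RPKM in fresh marrow, 105 and 149 on day 4 and 31.4 and 24.5 on day 7. It rose 2.90 ± 0.38 (limma adjusted p = 0.0117) and then fell by 2.14 ± 0.38 (limma adjusted p = 0.00948). Blvra, the main biliverdin reductase, stayed at 6.23 to 10.4 RPKM through day 4 and reached 81.0 and 84.7 RPKM at day 7, a rise of 3.48 ± 0.38 on day 4 (limma adjusted p = 0.00121). Both reductases, Blvra and Blvrb, were thus called higher in the second step.

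Among genes of heme and hemoglobin uptake, 2 of 7 were called higher and 3 lower at day 7 against day 0, beside 11.3% and 29.3% of all genes. Slc48a1, which carries heme out of the phagolysosome, gave 34.7 and 43.1 RPKM in fresh marrow, then 94.5 and 207, then 276 and 279, and rose 2.81 ± 0.47 at day 7 against day 0 (limma adjusted p = 0.00556). Lrp1, the receptor for hemopexin, had 1.76 to 12.6 RPKM before day 7 and 39.9 RPKM in each day 7 library, 3.43 ± 0.51 above day 4 (limma adjusted p = 0.0046). Hp, haptoglobin, which neutrophils store in granules, fell by 7.03 ± 0.74 from day 4 to day 7 (limma adjusted p = 0.00106). The hemoglobin scavenger receptor Cd163 had 4 and 6 reads at day 0 and 0 reads at day 7. Flvcr2, listed under an older symbol, had 3 reads in each day 0 library, which is the floor, and 4 and 0 reads at day 7 (called lower, limma adjusted p = 0.0297).

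Of the genes of iron import, Steap3, a ferrireductase of the transferrin cycle in red cell precursors, fell by 3.36 ± 0.46 at day 4 (limma adjusted p = 0.012), from 18.5 and 33.9 to 1.38 and 1.72 RPKM. Mcoln1, a lysosomal cation channel that passes iron, rose 1.86 ± 0.42 in the same step (limma adjusted p = 0.0449). Slc11a2, the metal transporter DMT1, rose 2.90 ± 0.52 from day 4 to day 7 (limma adjusted p = 0.0101), from 1.73 and 1.92 to 18.3 and 22.1 RPKM. Tfr2, the second transferrin receptor, had 4 and 9 reads at day 0 and 0 reads at day 7. Slc25a37, the mitochondrial iron importer mitoferrin 1, fell by 3.11 ± 0.44 from day 4 to day 7 (limma adjusted p = 0.00386) and stood at 177 and 303 RPKM at day 0. Its paralog Slc25a28 had 3.58 to 11.2 RPKM and was called in no comparison.

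Of 4 genes of ferritin loading and turnover, 1 was called higher at day 7 against day 4 (Pcbp1, beside 5.85% of all genes). Against day 0, 1 was called higher at day 7 (Pcbp2, beside 11.3%) and 0 were called at day 4 (1 lower at unadjusted p under 0.05). Ncoa4, the receptor that takes ferritin to the lysosome, had 85.8 to 263 RPKM over the 6 libraries and was not called in any comparison (limma adjusted p = 0.224, 0.228 and 0.894). Pcbp1, a chaperone that delivers iron to ferritin, rose 2.40 ± 0.54 from day 4 to day 7 (limma adjusted p = 0.0244), from 18.4 and 51.0 RPKM to 199.6 and 139. Of iron and heme export, 0 of 3 genes were called by limma in any comparison, with Flvcr1, the heme exporter, at 8.85 to 33.4 RPKM. At unadjusted p under 0.05, 0 of these 3 were called in the first and second steps, and 2 were lower at day 7 against day 0.

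Of 9 genes of iron sensing and hepcidin control, 2 were called higher and 4 lower at day 7 against day 0, beside 11.3% and 29.3% of all genes. Fbxl5, the iron-sensing part of the ligase that degrades iron regulatory protein 2, rose 2.13 ± 0.44 by day 4 (limma adjusted p = 0.0337) and fell by 4.04 ± 0.44 by day 7 (limma adjusted p = 0.00119). Its levels were 14.9 and 28.4, then 85.2 and 102.6, then 6.03 and 3.70 RPKM. Ireb2, which encodes that regulatory protein, was lower at day 7 than at day 0 (-1.83 ± 0.49, limma adjusted p = 0.0238), and Aco1, which encodes iron regulatory protein 1, was higher (1.31 ± 0.42, limma adjusted p = 0.0375). Hfe, the hemochromatosis protein that binds the transferrin receptor, rose 4.11 ± 0.46 from day 4 to day 7 (limma adjusted p = 0.00134), from 2.55 and 1.06 to 38.9 and 53.8 RPKM. Hamp, the hepcidin gene, had 0, 0, 1, 3, 0 and 0 reads in the 6 libraries.

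**Figure D4:**
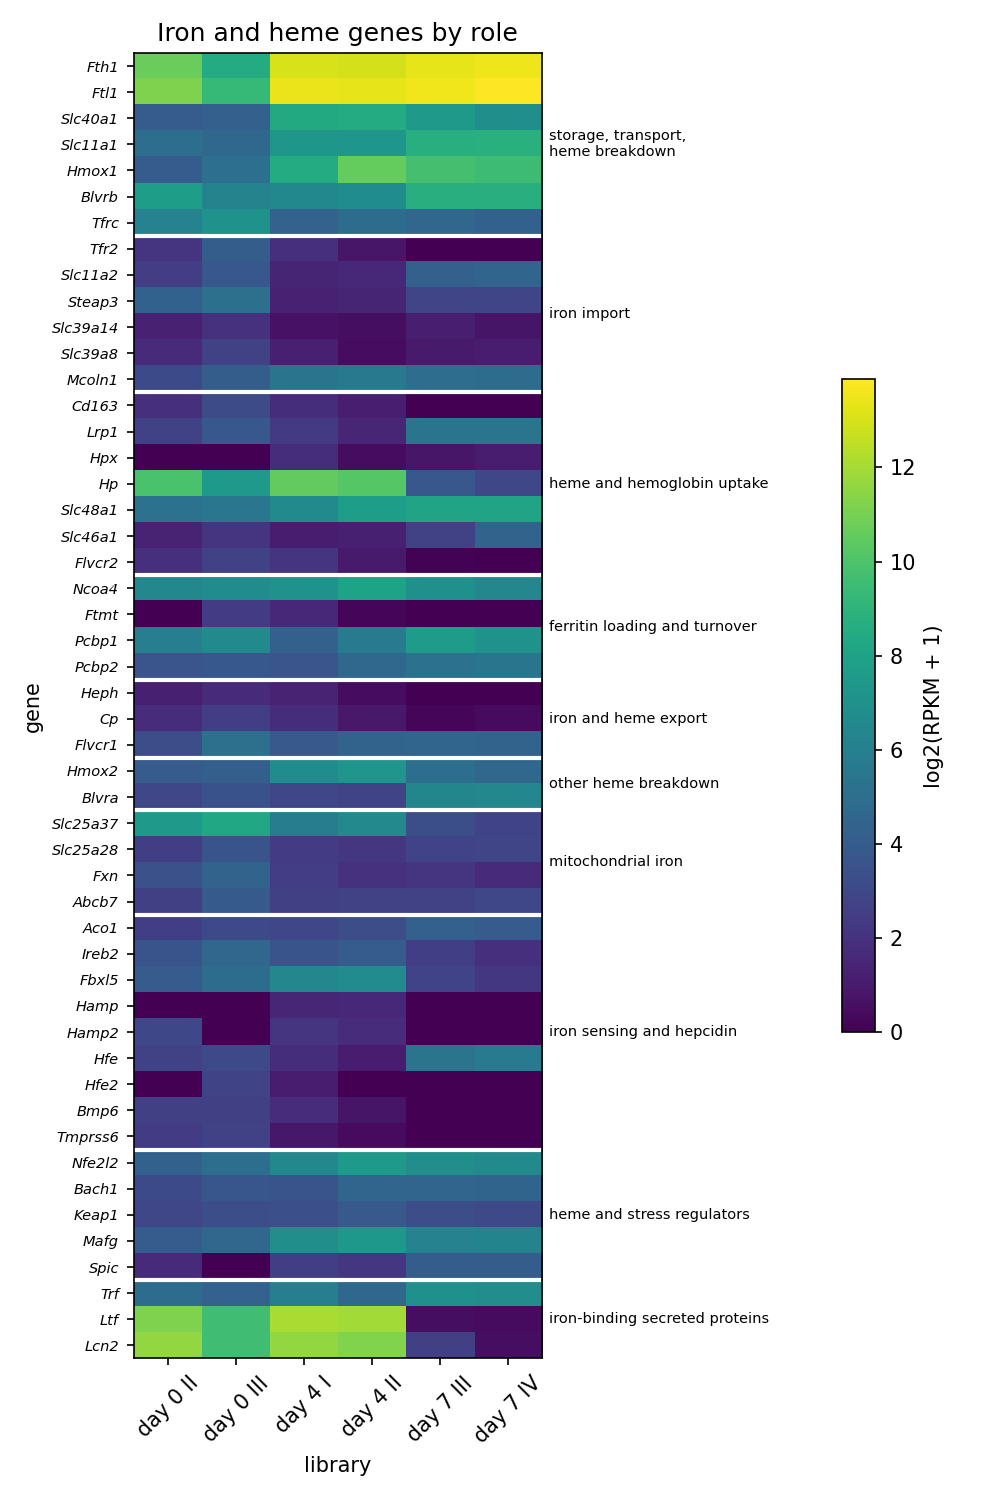
Levels as log2(RPKM + 1) (color) of the 7 genes and 43 other iron and heme genes (rows, by role) in 6 libraries (columns). Lcn2 goes from 2405 RPKM or more at day 4 to 5.30 RPKM or less at day 7, while Blvra and Hfe are highest at day 7.

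Of 5 regulators of heme and stress genes, 2 rose by day 4 (3.66% of all genes) and 3 were not called. Nfe2l2, which encodes the activator NRF2, rose 2.33 ± 0.47 (limma adjusted p = 0.032) from 18.8 and 31.8 to 89.1 and 180 RPKM, and stood at 115 and 95.1 RPKM at day 7. Mafg, a small Maf partner of NRF2, rose 2.84 ± 0.40 (limma adjusted p = 0.0122). Bach1, the heme-binding repressor of Hmox1, had 7.77 to 21.96 RPKM and was not called, and Keap1, which holds NRF2 down, had 6.80 to 13.5 RPKM and was not called. Spic, a transcription factor of iron-recycling macrophages, had 1 and 0 reads at day 0 and 16.1 and 16.2 RPKM at day 7, where it was called higher (limma adjusted p = 0.00924).

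Of the 3 secreted iron-binding proteins, 2 fell at day 7 against day 4 (6.75% of all genes) and 1 was not called. Lactoferrin (Ltf) and lipocalin 2 (Lcn2), granule proteins of neutrophils, fell by 11.58 ± 0.57 (limma adjusted p = 0.000106) and 9.84 ± 0.85 (limma adjusted p = 0.000461) from day 4 to day 7. Ltf stood at 4411 and 4022 RPKM at day 4 and at 0.429 and 0.333 RPKM at day 7. Transferrin (Trf) went from 29.1 and 19.8 RPKM in fresh marrow to 123 and 112 on day 7, a rise of 2.24 ± 0.49 (limma adjusted p = 0.0136).

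For each of the 7 genes the most similar profiles were sought among 7714 genes that averaged 5 RPKM or more, as the smallest root mean square distance of log2(RPKM + 1) after centring on the mean of the 6 libraries. Alox5ap, which helps make leukotrienes, and Napa, of vesicle fusion, were nearest to both Fth1 (0.181 and 0.261) and Ftl1 (0.201 and 0.256). Slc40a1 lay nearest to Adam8, a membrane protease (0.245), with 379 and 425 RPKM on day 4 before 211 and 205 on day 7. Slc11a1 lay nearest to Aprt, an enzyme of adenine salvage (0.157), and Atp6v0b, a subunit of the vacuolar proton pump (0.173). Hmox1 lay nearest to Ier3, an early response gene (0.229), and the chemokine gene Ccl3 (0.363), which shared its gap between the day 4 libraries. Blvrb lay nearest to Hypk (0.101) and Rps19bp1 (0.118), and Tfrc to Cenph, of the kinetochore (0.166), and Slc25a51, a mitochondrial carrier (0.2). These distances over 6 libraries of 3 days are a description, and the libraries share depth and makeup by day.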

How the data were processed

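RNA-seq of 6 libraries was used. Per the labels' protocols, total RNA was purified on Qiagen RNeasy columns and SMARTer v3 Ultra Low Input kits, then NexteraXT, made the libraries. Per the file headers, the authors deposited RPKM for each gene beside its length, symbol and Entrez number. The submitters' processing notes list mm9 as build and the tools TopHat2 2.0.13 and SAMtools 1.1, with no role for either. The sources used here do not give counter, annotation or strand handling, so overlapping antisense reads cannot be told apart. Coordinates of loops are GRCm38, not mm9. Whole reads were read back from RPKM times length (largest distance from a whole read 6.88e-05). On log2(RPKM + 1), genes with at least 1 RPKM in at least 2 libraries (19279) were fitted with limma 3.58.1 in R 4.3.3 (3 day means, mean-variance trend, 3 residual and a median of 5.22 prior degrees of freedom), two-sided, with Benjamini-Hochberg adjustment over all genes tested; folds understate changes of low genes. The 1 spread per gene is shared by the 3 days. Libraries differed most at day 0 for Fth1, Ftl1, Slc11a1, Blvrb and Tfrc, at day 4 for Hmox1 and at day 7 for Slc40a1. The script was tested on simulated data. Plots used matplotlib 3.10.9.

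The 7 genes, the 43 other iron and heme genes and 7 marker lists (macrophage, erythroid, neutrophil, dendritic cell, monocyte, B cell and proliferation, 65 of 66 entries found) were chosen with earlier results of these data known. Of each role, genes called in a comparison (up to 6) and up to 2 others of highest mean RPKM could be named, with 3 nearest profiles per gene. A subset of these is given. Further genes of the lists (Cd163, Tfr2, Flvcr2, Hamp and single markers) were named after their values were seen. At day 7 against day 0 limma called 3 of 10 dendritic cell markers higher and 3 lower, 5 of 6 monocyte and 4 of 6 B cell markers lower.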

Additional observations from a re-analysis of the deposited data

How the results depend on the processing

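Depth and the number of libraries set the limits: Hmox1 rests on 8 reads in each day 0 library, and with 1 library left out of a day the lone one is assumed to vary like the others. No paired analysis was possible because any 2 days share at most 1 replicate numeral. Of the 7 genes, limma called 4 at day 4 against day 0, but 2 with no filter on low values, 2 with reads thinned to the smallest library and 2 with no mean-variance trend (an alternative chosen after seeing the data), and 0 to 6 with 1 library left out. At day 7 against day 4 it called 2, but 1 with no filter, 1 with quantile normalization, 0 with median ratio scaling, 1 with thinned reads, 0 with no trend, and 0 to 3 with 1 library left out. At day 7 against day 0 it called 6, but 2 with thinned reads and 3 to 7 with 1 library left out. Of the 43 other genes, 6 were called at day 4 against day 0, but 3 with pseudocount 0.1, quantile normalization, voom on recovered reads or no trend, 2 with thinned reads, and 0 to 13 with 1 library left out. At day 7 against day 4, 11 were called, but 17 with pseudocount 0.1 or only the 2 days fitted, 32 with voom, 5 with thinned reads, and 0 to 19 with 1 library left out. At day 7 against day 0, 24 were called, but 12 with quantile normalization, 6 with thinned reads, and 6 to 25 with 1 library left out. Counts over all 19279 genes moved with the setting as well (higher, then lower). At day 4 against day 0 the main fit gave 705 and 370, voom 116 and 193, thinned reads 400 and 1172. At day 7 against day 4 the main fit gave 1127 and 1301, voom 2396 and 10392, thinned reads 250 and 397. At day 7 against day 0 the main fit gave 2183 and 5649, quantile normalization 1245 and 1082, thinned reads 821 and 2440. The cause of either set of shifts was not tested.

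Signs turned only for changes not called. Hmox1 at day 7 against day 4 was -0.85 with quantile normalization, -0.0105 with voom, and -0.93 to 1.09 with 1 library left out (-0.93 without day 4 library I, -0.06 without day 7 library III). Tfrc in that comparison was 0.0811 with median ratio scaling and -0.43 to 0.0946 with 1 library left out. Blvrb at day 4 against day 0 was -1.09 to 0.40 with 1 library left out. The median of all genes, -0.40, -0.81 and -1.14 in the 3 comparisons, was -0.04, -0.10 and -0.16 with quantile normalization and -0.29, -0.70 and -0.96 with median ratio scaling. Fth1 at day 7 against day 0 lost its call in 9 of 16 alternatives, and Ftl1 in that comparison gained one in 7 of 16, all with the same sign.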
